A study of Mus musculus with 9 samples.

Results

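The 10 genes described here were those of endoplasmic reticulum (ER) stress and of the transcription factor Atf4. They were Atf4 and Xbp1, the Atf4-arm genes Asns, Trib3, Chac1 and Ddit3, and the chaperone-arm genes Hspa5, Hsp90b1, Manf and Sdf2l1. They were taken by symbol from the 23231 genes of an RNA sequencing table, and all 10 were among the 10794 genes with a mean of at least 1 FPKM that were tested. FPKM is fragments per kilobase of gene and unit of sequencing depth, so levels of different genes can be compared per length. The tissue was the tibialis anterior, a hindlimb muscle, of C57BL/6 mice aged 6 months, into which small interfering RNA (siRNA) had been electroporated. The 3 groups of 3 libraries received Ubr4 siRNA construct 5, Ubr4 siRNA construct 7 or a non-targeting control siRNA. Ubr4 is a large E3 ubiquitin ligase, and the study asked which ubiquitin ligases govern the size of muscle fibres. All 3 groups were electroporated with an siRNA, no untreated muscle was analysed here, and each library was made from whole muscle, so fibres with and without siRNA were read together. The labels do not say that the samples of a group came from separate animals, so each p-value measures only the spread between these samples, which may be technical.

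When misfolded proteins build up in the ER, the membrane sensors Ern1 (IRE1), Eif2ak3 (PERK) and Atf6 start the unfolded protein response. Ern1 splices Xbp1 mRNA, and spliced Xbp1 and cleaved Atf6 switch on chaperone genes such as Hspa5 (BiP). Eif2ak3 and related kinases that sense amino acid shortage, double-stranded RNA or haem shortage phosphorylate eIF2, which slows translation in general while translation of Atf4 mRNA goes up. Atf4 protein then switches on genes of amino acid supply and, in long stress, of cell death. The level of Atf4 mRNA is therefore no measure of Atf4 protein, and a value per gene does not separate spliced from unspliced Xbp1. In muscle fibres much of the ER is specialised as the sarcoplasmic reticulum, the calcium store of the fibre.

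Each arm is known for its own short sequence element near the start site, and the stretches that hold one are printed because the chaperone arm and the Atf4 arm are contrasted throughout. RefSeq promoter windows of mouse build GRCm38.p6, running from 250 bases before to 50 bases after the start site, were found for 9 of the 10 genes, all but Manf. The ER stress element, at which Atf6 acts with NF-Y, was searched as CCAAT, a gap of 9 bases and CCACG. The element of the amino acid response, at which Atf4 pairs with C/EBP proteins, was searched as TGATGNAA. Both were searched on both strands, and no match of one overlapped a match of the other. The gapped element occurred in 39 of 32851 windows (0.119%), and TGATGNAA in 1304 of them (3.97%). Hspa5 held 1 match of the gapped element, beginning 65 bases before the start site, and Hsp90b1 held 2, beginning 212 and 107 bases before it. Asns, Chac1 and Trib3 each held 1 match of TGATGNAA, beginning 23 bases before the start site in Asns, 193 before it in Chac1 and 14 after it in Trib3. Neither element was matched in the windows of Atf4, Xbp1, Ddit3 and Sdf2l1, which says only that these letters are not there. A match describes the letters and is not evidence of binding. Below, the 250 bases before the start site are given 5′ to 3′ on the gene's strand, and for Trib3 the 28 bases around its match, with the matches in capitals; on the minus strand of the gene a match reads as its reverse complement. The stretches are Hspa5 at chr2:34771840-34772089 (plus strand), Hsp90b1 at chr10:86705445-86705694 (minus strand), Asns at chr6:7693210-7693459 (minus strand), Chac1 at chr2:119350992-119351241 (plus strand) and Trib3 at chr2:152344029-152344056 (minus strand).
Hspa5: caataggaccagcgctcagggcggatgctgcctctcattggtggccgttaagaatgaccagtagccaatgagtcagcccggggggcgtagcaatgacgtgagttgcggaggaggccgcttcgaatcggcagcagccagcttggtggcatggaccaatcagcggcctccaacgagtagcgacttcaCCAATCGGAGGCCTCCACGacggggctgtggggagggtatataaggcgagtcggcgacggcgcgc
Hsp90b1: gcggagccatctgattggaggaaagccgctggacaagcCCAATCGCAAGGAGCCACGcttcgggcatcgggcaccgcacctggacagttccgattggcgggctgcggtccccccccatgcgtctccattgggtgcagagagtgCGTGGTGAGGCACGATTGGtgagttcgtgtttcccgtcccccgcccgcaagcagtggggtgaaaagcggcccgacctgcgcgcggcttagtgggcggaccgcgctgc
Asns: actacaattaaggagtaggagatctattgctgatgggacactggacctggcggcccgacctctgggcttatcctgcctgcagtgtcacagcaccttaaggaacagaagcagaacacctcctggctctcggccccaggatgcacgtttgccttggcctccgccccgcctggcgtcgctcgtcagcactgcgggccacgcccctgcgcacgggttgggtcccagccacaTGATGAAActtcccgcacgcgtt
Chac1: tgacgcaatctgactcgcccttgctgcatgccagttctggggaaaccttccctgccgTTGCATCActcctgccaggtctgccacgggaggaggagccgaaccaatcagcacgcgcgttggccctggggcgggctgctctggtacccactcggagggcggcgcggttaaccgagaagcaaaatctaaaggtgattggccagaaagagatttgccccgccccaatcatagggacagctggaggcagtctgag
Trib3: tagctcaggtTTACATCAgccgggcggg

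Depth, which the spacing of low FPKM values gives, ranged from 29312122 to 45563543 reads per library, and the 10 genes were read by 32 to about 12974 reads per library. Ubr4 itself (ENSMUSG00000066036) stood at 3.61, 3.80 and 2.73 FPKM with construct 5, at 2.25, 2.58 and 3.07 FPKM with construct 7 and at 7.82, 10.3 and 9.09 FPKM in the controls, so both constructs lay below every control. The median log2 change of all tested genes was 0.13 with construct 5 and 0.02 with construct 7. Of these genes, 76.7% lay above 0 with construct 5 and 57% with construct 7. Median-ratio scaling, which sets the typical gene equal between libraries, moved these medians to -0.02 and 0.00, a shift of all genes that bears on each construct 5 value given here. Under it the genes called at a Benjamini-Hochberg adjusted p under 0.05 with construct 5 numbered 28 higher and 169 lower, against 504 higher and 65 lower without it. Markers of other cell types moved with the groups as well, and in whole muscle fewer cells of a type and less RNA per cell cannot be told apart. The summed level of 12 macrophage markers was 212 to 381 FPKM with construct 5, 104 to 160 FPKM with construct 7 and 129 to 190 FPKM in the controls. The sum of 9 fibroblast and matrix markers was 688 to 1017 FPKM with construct 5, 414 to 496 FPKM with construct 7 and 533 to 640 FPKM in the controls. None of the 21 markers was at 0 in any library. Skeletal muscle markers, at 46410 to 51240 FPKM with construct 5, 43220 to 51430 FPKM with construct 7 and 50690 to 53790 FPKM in the controls, fitted the labelled tissue.

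Among the 10 genes, Atf4 and Hspa5 were the most abundant and Trib3 and Asns the least. Averaged over all 9 libraries, the levels were 77.2 FPKM for Atf4, 57.5 for Hspa5, 28.5 for Hsp90b1 and 14.6 for Xbp1. Ddit3 followed at 10.6 FPKM, Chac1 at 7.50, Manf at 5.01, Sdf2l1 at 3.15, Asns at 1.29 and Trib3 at 1.12 FPKM. Over the 9 libraries, the ranges of neighbours in this order overlapped except between Hspa5 and Hsp90b1 and between Hsp90b1 and Xbp1. The plot of levels shows each library.

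**Figure D1:**
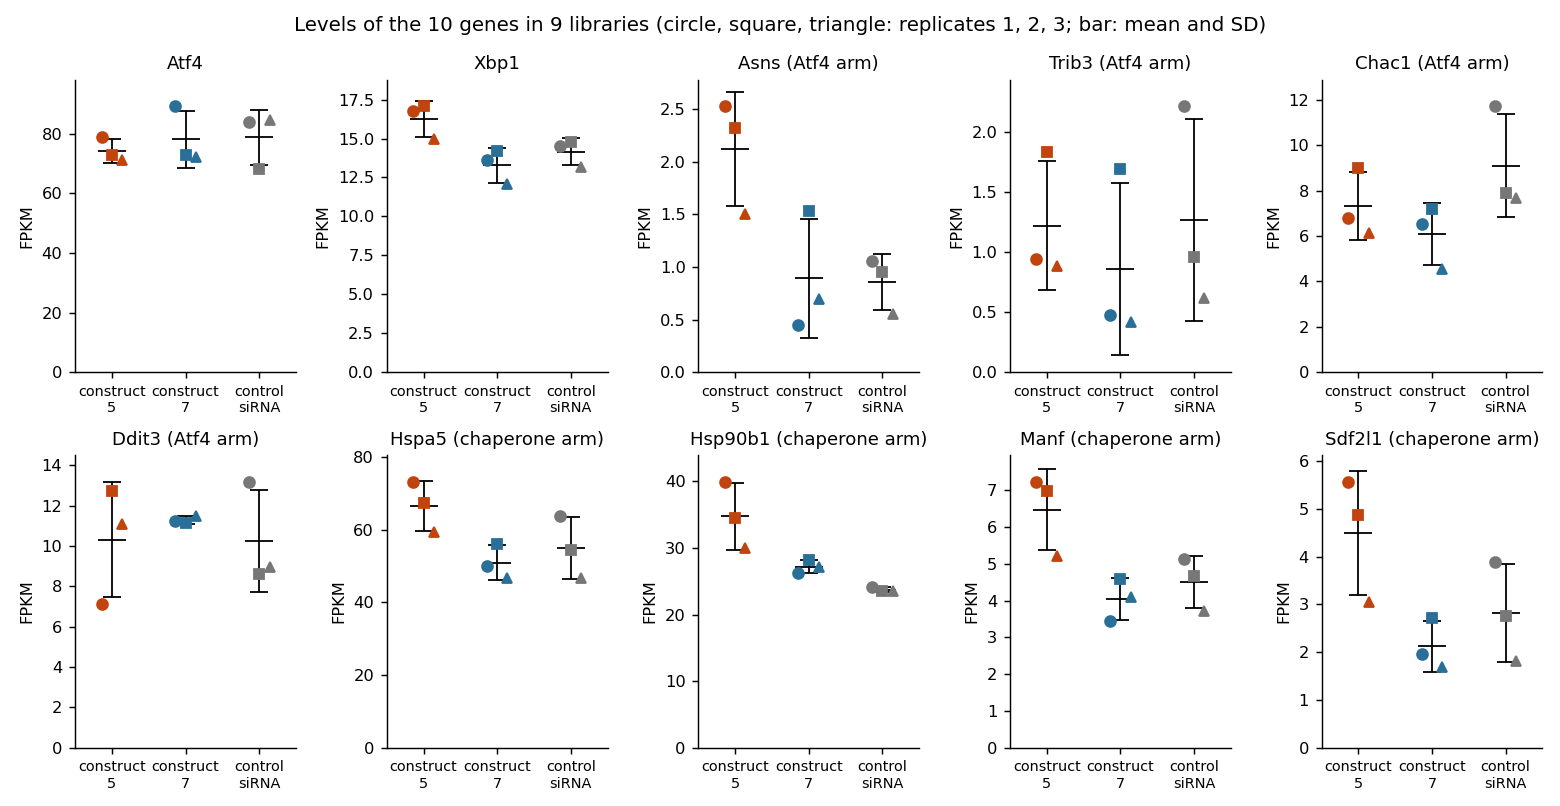
Level of each of the 10 genes in FPKM (vertical axis, from 0) for construct 5, construct 7 and control siRNA. Each symbol is 1 library (circle, square and triangle for replicates 1, 2 and 3) and the bar is the mean with its SD (n = 3). Hsp90b1 with construct 5 lies between 29.9 and 39.9 FPKM, above the control libraries at 23.5 to 24.2 FPKM.

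Of the 10 genes, 1 passed the test with construct 5, where 5.27% of all tested genes did, and none passed with construct 7, where 0.0556% did. The gene that passed was the chaperone Hsp90b1, which rose. At an unadjusted p under 0.05, limma counted 4 of the 10 with construct 5, beside 3447 of all 10794, and 1 of the 10 with construct 7, beside 1022 of all. A linear model of the recovered reads with voom, an alternative chosen after the data were seen, also called 0 of the 10 with construct 7. With both constructs averaged against the controls 0 of the 10 passed, where 0.00926% of all genes did, and voom called 0 at an adjusted p under 0.05. The limma count at an unadjusted p under 0.05 was 2 of the 10, beside 2066 of all genes. Both comparisons with control use the same 3 control libraries, so a high or low control moves both.

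The transcription factors Atf4 and Xbp1 did not pass with either construct. Atf4 (ENSMUSG00000042406), the factor that gives the Atf4 arm its name, was at 78.9, 72.9 and 71.2 FPKM with construct 5, at 89.3, 73.0 and 72.4 FPKM with construct 7 and at 84.0, 68.2 and 84.6 FPKM in the controls. The 3 groups overlapped throughout. The log2 change of Atf4, on the log2(FPKM + 1) scale of every change given here, was -0.08 with construct 5 (95% interval -0.33 to 0.17, limma adjusted p = 0.635) and -0.01 with construct 7 (adjusted p = 0.990). Under median-ratio scaling the construct 5 value was -0.26 with an adjusted p of 0.189.

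Xbp1 (ENSMUSG00000020484), whose spliced form drives ER folding and degradation genes, was at 16.8, 17.1 and 14.9 FPKM with construct 5, at 13.6, 14.2 and 12.1 FPKM with construct 7 and at 14.5, 14.8 and 13.2 FPKM in the controls. Construct 5 lay above every control library by a narrow margin, and construct 7 overlapped the controls. Its log2 change was 0.19 with construct 5 (95% interval -0.00 to 0.37, limma adjusted p = 0.161; 2-sided exact permutation p = 0.1, the smallest that 3 libraries against 3 can give). With construct 7 it was -0.09 (adjusted p = 0.805). The construct 5 value came to 0.01 after median-ratio scaling.

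The 4 chaperone-arm genes had log2 changes of 0.28 to 0.53 with construct 5, all above 0, and among them Hsp90b1 passed. Hsp90b1 (ENSMUSG00000020048, GRP94), a chaperone of the ER lumen that folds integrins, Toll-like receptors and growth factors, was at 39.9, 34.4 and 29.9 FPKM with construct 5, at 26.2, 28.2 and 27.2 FPKM with construct 7 and at 24.2, 23.5 and 23.5 FPKM in the controls. The 6 Ubr4 siRNA libraries all lay above the 3 controls, which were close together. Construct 5 averaged 34.7 ± 5.00 FPKM and the controls 23.7 ± 0.404 FPKM (SD, n = 3 each), a log2 change of 0.52 (SE 0.0954, 95% interval 0.31 to 0.74, limma adjusted p = 0.0406). With construct 7 the mean was 27.2 ± 0.979 FPKM (SD, n = 3) and the change 0.19 (SE 0.0954, 95% interval -0.03 to 0.40, adjusted p = 0.590). Both constructs together gave 0.36 (SE 0.0826, adjusted p = 0.102), with 6 of 6 libraries above the controls (2-sided exact permutation p = 0.0238, the smallest that 6 against 3 can give). That permutation p is not adjusted for the number of genes, and the share of all genes with 6 of 6 above was not counted. With construct 5 alone, 33.0% of all tested genes lay above every control. The construct 5 call sat near the threshold. Its adjusted p was 0.0805 without the filter on low values and 0.0562 under median-ratio scaling (log2 change 0.34). It was also lost without construct 5 replicate 1 (0.138) or 2 (0.0696), without construct 7 replicate 3 (0.0612) and without control replicate 1 (0.119), 2 (0.101) or 3 (0.0949).

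Hspa5 (ENSMUSG00000026864), the main Hsp70 of the ER and the brake on all 3 stress sensors, was at 73.1, 67.3 and 59.5 FPKM with construct 5, at 50.04, 56.0 and 46.6 FPKM with construct 7 and at 63.8, 54.5 and 46.8 FPKM in the controls. One construct 5 library lay below the highest control. The log2 change was 0.28 with construct 5 (SE 0.124, 95% interval -0.00 to 0.56, limma adjusted p = 0.158) and -0.10 with construct 7 (95% interval -0.38 to 0.17, adjusted p = 0.857). Neither passed, and median-ratio scaling left 0.10 with construct 5 (adjusted p = 0.666).

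Manf (ENSMUSG00000032575), a small secreted ER protein that binds Hspa5 and is also known as a neurotrophic factor, was at 7.23, 6.99 and 5.20 FPKM with construct 5, at 3.44, 4.58 and 4.10 FPKM with construct 7 and at 5.13, 4.66 and 3.72 FPKM in the controls. Construct 5 was above every control, its lowest library by a narrow margin, and construct 7 overlapped them. For Manf the log2 change was 0.44 with construct 5 (SE 0.139, 95% interval 0.13 to 0.75, limma adjusted p = 0.0813) and -0.13 with construct 7 (adjusted p = 0.843). Without construct 5 replicate 3, the lowest of its group, the construct 5 change was 0.57 and passed with an adjusted p of 0.0498. Median-ratio scaling gave 0.28 (adjusted p = 0.223).

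Sdf2l1 (ENSMUSG00000022769), a partner of ER DnaJ proteins that assists Hspa5, was at 5.56, 4.87 and 3.06 FPKM with construct 5, at 1.96, 2.72 and 1.70 FPKM with construct 7 and at 3.88, 2.76 and 1.82 FPKM in the controls. The groups overlapped, since the third construct 5 library lay below the first control. For Sdf2l1 the log2 change was 0.53 with construct 5 (SE 0.228, 95% interval 0.02 to 1.04, limma adjusted p = 0.146) and -0.27 with construct 7 (adjusted p = 0.767). The construct 5 change was as large as that of Hsp90b1 in size, with an SE more than double (0.228 against 0.0954). Median-ratio scaling gave 0.38 with construct 5 (limma adjusted p = 0.322).

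**Figure D2:**
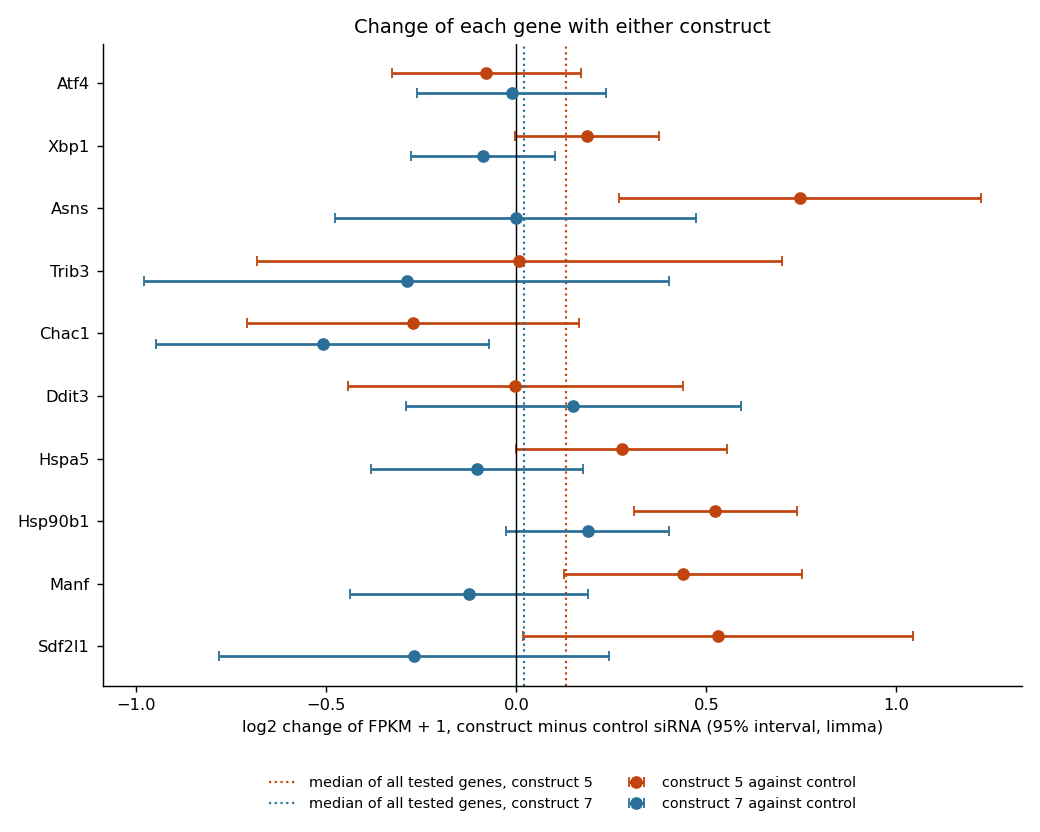
Log2 change of FPKM + 1 (horizontal axis) of each gene with construct 5 and construct 7 against control siRNA; points are limma estimates and bars their 95% intervals, with dotted lines at the median of all tested genes (0.13 and 0.02). The intervals of Asns, Hsp90b1, Manf and Sdf2l1 with construct 5 lie above 0, and that of Chac1 with construct 7 lies below 0.

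None of the 4 Atf4-arm genes passed with either construct. Asns (ENSMUSG00000029752), asparagine synthetase and a classic amino acid response gene, was at 2.53, 2.33 and 1.50 FPKM with construct 5, at 0.448, 1.53 and 0.696 FPKM with construct 7 and at 1.06, 0.950 and 0.551 FPKM in the controls. Construct 5 lay above every control, and construct 7 spread on both sides of them. In reads, the construct 5 libraries held 229, 290 and 125, the construct 7 libraries 39, 161 and 82, and the controls 85, 84 and 47. Counting error alone gave exact Poisson 95% intervals of 200 to 261 for 229 reads and of 28 to 53 for 39 reads. The log2 change was 0.75 with construct 5 (SE 0.211, 95% interval 0.27 to 1.22, limma adjusted p = 0.0648; 2-sided exact permutation p = 0.1, the smallest possible), and -0.00 with construct 7 (95% interval -0.48 to 0.47, adjusted p = 0.999). The construct 5 change did not pass as fitted, and passed without construct 7 replicate 2 (adjusted p = 0.0423), which enters that fit only through the shared spread and the filter. Because the level was low, the size depended on the pseudocount, and a pseudocount of 0.1 gave 1.35. Median-ratio scaling gave 0.63 with construct 5 (limma adjusted p = 0.115).

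Chac1 (ENSMUSG00000027313), which breaks down glutathione and is switched on through Atf4, was at 6.81, 9.01 and 6.15 FPKM with construct 5, at 6.52, 7.18 and 4.54 FPKM with construct 7 and at 11.7, 7.88 and 7.70 FPKM in the controls. Every construct 7 library lay below every control, while construct 5 overlapped them. The change of Chac1 was -0.27 with construct 5 (95% interval -0.71 to 0.17, limma adjusted p = 0.346) and -0.51 with construct 7 (SE 0.195, 95% interval -0.95 to -0.07, adjusted p = 0.445). Neither passed, and under median-ratio scaling the construct 5 value was -0.44 (adjusted p = 0.211). Chac1 with construct 7 was the 1 gene of the 10 with an unadjusted p under 0.05 in that comparison.

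Ddit3 (ENSMUSG00000025408, CHOP), the factor of the late, death-promoting phase of ER stress, was at 7.14, 12.7 and 11.1 FPKM with construct 5, at 11.2, 11.1 and 11.5 FPKM with construct 7 and at 13.2, 8.62 and 8.97 FPKM in the controls. The construct 7 libraries were almost equal (coefficient of variation 1.64%) and lay inside the range of the controls. The log2 change was -0.00 with construct 5 (95% interval -0.44 to 0.44, limma adjusted p = 0.992) and 0.15 with construct 7 (adjusted p = 0.873). Median-ratio scaling gave -0.17 with construct 5.

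Trib3 (ENSMUSG00000032715), a pseudokinase that binds Akt and feeds back on Atf4 and Ddit3, was at 0.939, 1.84 and 0.883 FPKM with construct 5, at 0.473, 1.69 and 0.415 FPKM with construct 7 and at 2.22, 0.961 and 0.619 FPKM in the controls. Single libraries stood high in every group: the highest was 2.08 times the lowest with construct 5, 4.07 times with construct 7 and 3.58 times among the controls. Reads were 66, 178 and 57 with construct 5, 32, 138 and 38 with construct 7 and 138, 66 and 41 in the controls. The spread within groups exceeded counting error, since 138 reads carry an exact Poisson 95% interval of 116 to 163 and 41 reads one of 29 to 56. For Trib3 the log2 change was 0.01 with construct 5 (SE 0.307, 95% interval -0.68 to 0.70, limma adjusted p = 0.988) and -0.29 with construct 7 (adjusted p = 0.830), so the construct 5 interval holds changes of 0.5 in either direction. Median-ratio scaling gave -0.09 with construct 5.

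**Figure D3:**
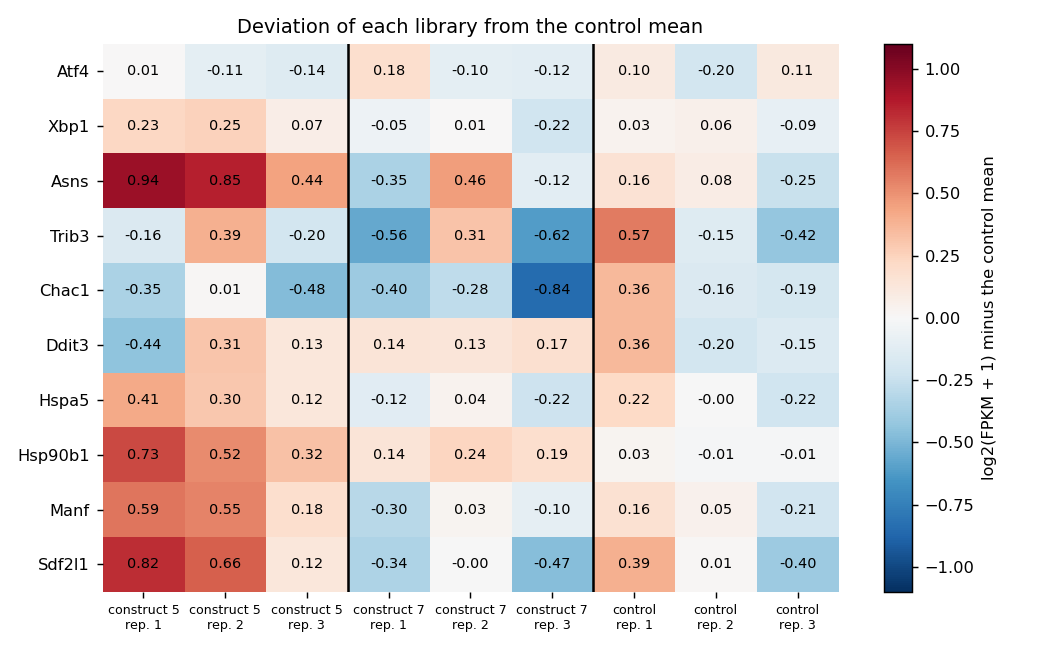
Deviation of each library from the control mean on the log2(FPKM + 1) scale, for the 10 genes (down the page) in the construct 5, construct 7 and control libraries (across, separated by lines). Xbp1, Asns and the 4 chaperone-arm genes are above 0 in all 3 construct 5 libraries, and Atf4 lies between -0.20 and 0.18.

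Set side by side, the median log2 change with construct 5 was 0.00 over the Atf4 arm, with 2 of 4 genes above 0 and a range from -0.27 to 0.75. It was 0.48 over the chaperone arm. The corresponding median of all tested genes was 0.13, and 76.7% of them lay above 0. With construct 7 the medians were -0.14 over the Atf4 arm (1 of 4 above 0) and -0.11 over the chaperone arm (1 of 4 above 0, range -0.27 to 0.19). Over all tested genes the construct 7 median was 0.02, and 57% lay above 0. Under median-ratio scaling the construct 5 medians were -0.13 for the Atf4 arm and 0.31 for the chaperone arm, beside -0.02 for all genes. The Atf4-arm median also turned to -0.17 without construct 5 replicate 2, to -0.14 without control replicate 3 and to -0.09 without control replicate 2, so no direction can be given to it. Read by library, the mean deviation of the chaperone arm from the control mean was 0.64, 0.50 and 0.19 with construct 5, -0.16, 0.07 and -0.15 with construct 7 and 0.20, 0.01 and -0.21 in the controls. That of the Atf4 arm was -0.00, 0.39 and -0.03 with construct 5, -0.29, 0.15 and -0.35 with construct 7 and 0.36, -0.11 and -0.25 in the controls. The third construct 5 library lay at the level of the first control in the chaperone arm, so the arm's means overlapped between construct 5 and control.

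**Figure D4:**
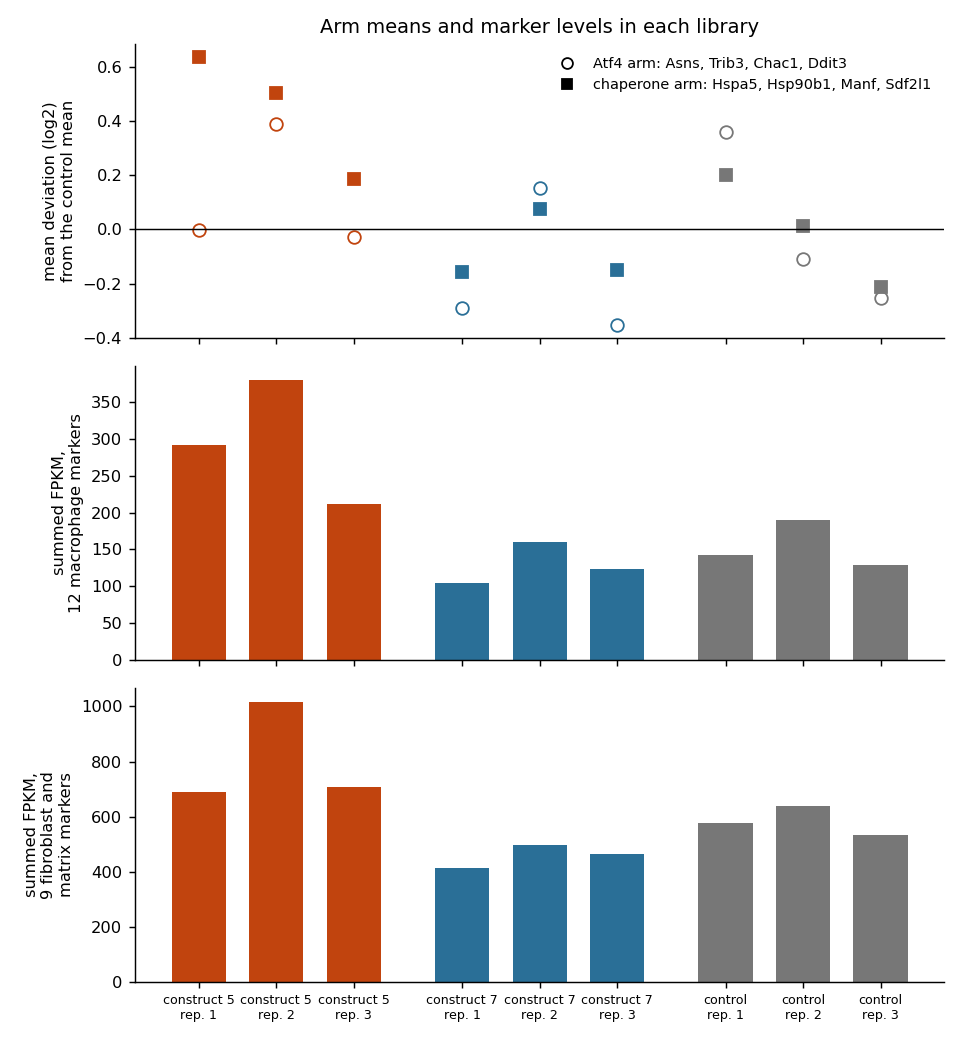
Mean deviation of the Atf4 arm (circles) and the chaperone arm (squares) from the control mean on the log2 scale (top), and summed FPKM of 12 macrophage markers (middle) and 9 fibroblast and matrix markers (bottom), in each construct 5, construct 7 and control library. In each panel the highest chaperone-arm value or marker sum belongs to a construct 5 library, but not to the same one. The arm is highest in replicate 1 (0.64) and the marker sums in replicate 2 (381 FPKM and 1017 FPKM). Replicate 1 has marker sums of 291 FPKM and 688 FPKM.

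The marker levels moved with construct 5 as well: 12 of 12 tested macrophage markers lay above 0 (median log2 change 0.78, 3 called higher) and 9 of 9 fibroblast and matrix markers did (median 0.51, 1 called higher). After median-ratio scaling the medians were 0.62 and 0.32, all of them stayed above 0 and none was called. Their part in the chaperone values was not tested. With construct 7 the medians were -0.11 and -0.53, with none called. Endothelial markers summed to 76.2 to 100 FPKM with construct 5, 78.5 to 88.8 FPKM with construct 7 and 79.5 to 91.4 FPKM in the controls. Neutrophil markers reached 33.5 FPKM in construct 5 replicate 2 and stayed at 0.252 to 1.79 FPKM in the other 8 libraries, and S100a8, Ly6g, Retnlg and Mpo were each at 0 in at least 1 library. Plasma and B cell markers summed to 2.17 to 2.36 FPKM with construct 5, 1.41 to 2.39 FPKM with construct 7 and 1.35 to 1.90 FPKM in the controls, with none at 0 and 4 of 5 under 1 FPKM in every library. Adipocyte markers summed to 280 to 323 FPKM with construct 5, 248 to 290 FPKM with construct 7 and 254 to 314 FPKM in the controls. Satellite cell markers summed to 6.02 to 8.32 FPKM with construct 5, 5.38 to 6.61 FPKM with construct 7 and 6.13 to 6.64 FPKM in the controls.

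Which library of a group was highest was counted for the 10 genes. Control replicate 1 held the highest of the 3 control values in 8 of the 10 genes, all but Atf4 and Xbp1, where it did so in 26.7% of all tested genes, and control replicate 3 held the lowest in 8 (27.9% of all tested genes). In construct 7, replicate 2 was highest in 8 of the 10 (34.2% of all tested genes). In construct 5, replicate 3 was lowest in 9 of the 10, all but Ddit3 (51.3% of all tested genes). Replicate 1 of construct 5 was highest in 6, namely Atf4, Asns and the 4 chaperone-arm genes (49.3% of all tested genes), and replicate 2 in 4, namely Xbp1, Trib3, Chac1 and Ddit3 (37.4%). Both shares are near those of all genes. Across the 9 libraries, which share the groups and the scaling, Pearson's r on the log2 scale was 0.99 between Hspa5 and Sdf2l1, 0.95 between Manf and Sdf2l1 and 0.95 between Asns and Manf. Not all pairs were so alike: r with each of the others ran from -0.41 to 0.26 for Atf4 and from -0.24 to 0.40 for Ddit3. These values describe these libraries only.

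Libraries that lay wholly on one side of the controls were counted for all genes. With construct 5, 4 of the 10 lay above every control (Xbp1, Asns, Hsp90b1 and Manf), where 33.0% of all tested genes did, and 0 lay below, where 5.19% did. The share above is close to that of all genes. With construct 7, 1 gene lay above every control (Hsp90b1), where 10.5% of genes did, and 1 below (Chac1), where 6.26% did.

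The constructs were also set against each other, which uses no control library. None of the 10 passed, where 1.22% of all tested genes did (16 higher and 116 lower with construct 7; 67 higher and 39 lower under median-ratio scaling). At an unadjusted p under 0.05 limma counted 6 of the 10, beside 2491 of all genes. Voom called 0 of the 10 at an adjusted p under 0.05. Construct 7 lay below every construct 5 library in Xbp1, Hspa5, Hsp90b1, Manf and Sdf2l1, 5 of the 10, where 22.4% of all genes did, and lay above it in 0, where 3.02% did. The log2 changes of construct 7 against construct 5 were -0.80 for Sdf2l1, -0.56 for Manf, -0.38 for Hspa5 and -0.33 for Hsp90b1, with adjusted p-values from 0.0719 to 0.129. Xbp1 was at -0.27 (limma adjusted p = 0.115) and Asns, where the groups overlapped, at -0.75 (adjusted p = 0.0977). Trib3, Chac1 and Ddit3 were at -0.30, -0.24 and 0.15, and Atf4 at 0.07, none with an adjusted p under 0.472. After median-ratio scaling the values were nearer to 0, at -0.18 for Hsp90b1 (adjusted p = 0.245), -0.22 for Hspa5 and -0.12 for Xbp1, and also for Manf (-0.43), Sdf2l1 (-0.67), Asns (-0.65), Trib3 (-0.22) and Chac1 (-0.10). Those of Ddit3 and Atf4 were farther from 0, at 0.30 and 0.23, and none of the 10 passed. Without construct 7 replicate 2, Asns passed at -0.98 (adjusted p = 0.0303), and without construct 5 replicate 3, Hsp90b1 passed at -0.43 (adjusted p = 0.0459) and Manf at -0.69 (adjusted p = 0.0450). The fold of Ubr4 itself did not separate the constructs (log2 change of construct 7 against construct 5 -0.27, adjusted p = 0.246).

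Genes that carry the gapped ER stress element in their window numbered 37, of which 12 were tested and 10 were not among the 10 genes described. These 10 were Acacb, Alg12, Calr, Canx, Creld2, Dnajc3, Hnrnpa3, Pan2, Pdia6 and Syvn1. With construct 5, 8 of the 10 lay above 0, where 76.7% of all tested genes did, so that share is close to that of all genes. Of the 10, 1 was called higher (Canx), where 5.27% of all tested genes were called. Their median log2 change was 0.24, beside 0.13 for all genes, and it was not computed under median-ratio scaling. Canx is also among the ER chaperones described below, so its call there is not a second observation. With construct 7 the median of these 10 was 0.01 and none was called, where 0.0556% of all tested genes were. The 185 tested genes with TGATGNAA outside the list had a median of 0.12 with construct 5, with 9 called higher and 2 lower (5.95% called, beside 5.27% of all), and 0.01 with construct 7, with none called.

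Related lists placed these values in their pathways. Of 22 tested ER chaperones and folding enzymes outside the list, 4 rose with construct 5 and 20 lay above 0, with a median log2 change of 0.26. Among all tested genes 5.27% were called, 76.7% lay above 0 and the median was 0.13. The 4 were the lectin chaperone Canx, the disulfide isomerases Pdia3 and Txndc5 and the prolyl isomerase Fkbp11. Canx was at 24.4 ± 3.12 FPKM with construct 5, against 17.2 ± 1.09 FPKM in the controls (SD, n = 3 each; log2 change 0.48, limma adjusted p = 0.0427). Fkbp11 was at 4.84 ± 1.19 FPKM with construct 5, against 1.88 ± 0.514 FPKM in the controls (SD, n = 3 each; log2 change 1.01, adjusted p = 0.0498). Pdia3 changed by 0.45 and Txndc5 by 0.49 (adjusted p = 0.0491 and 0.0492). With construct 7 the median of this list was -0.03 and 7 of 22 lay above 0, beside 0.02 and 57% for all tested genes. Canx, at 0.31 with construct 7, was above every control without passing (limma adjusted p = 0.366). Under median-ratio scaling the construct 5 median of the list was 0.09, beside -0.02 for all genes, and none of its genes was called.

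The entry of proteins into the ER gave 2 further calls. Of 20 translocon and signal peptidase genes, 19 lay above 0 with construct 5 and Spcs3 and Ssr3 rose, beside 76.7% above 0 and 5.27% called among all tested genes. The median of the list, 0.17, was close to the 0.13 of all genes. Spcs3, a subunit of the signal peptidase, was at 15.2, 13.8 and 12.4 FPKM with construct 5, at 9.85, 10.02 and 9.19 FPKM with construct 7 and at 8.86, 8.60 and 8.59 FPKM in the controls. Both constructs lay above every control. Its log2 change was 0.61 with construct 5 (SE 0.0786, limma adjusted p = 0.0344) and 0.14 with construct 7 (adjusted p = 0.623). Ssr3, of the translocon-associated complex, changed by 0.39 with construct 5 (adjusted p = 0.0492). Of 19 tested genes of ER associated degradation, 19 lay above 0 with construct 5 (median 0.18, beside 0.13 for all genes) and none was called. At an unadjusted p under 0.05 limma counted 8 of the 19, beside 3447 of all 10794 tested genes. Voom called 0 at an adjusted p under 0.05. The lowest limma adjusted p was 0.0738, for the ubiquitin-conjugating enzyme Ube2g2 (log2 change 0.30). With construct 7 none of these was called, and the medians were 0.02 and 0.07. Under median-ratio scaling the construct 5 medians were -0.01 for the translocon list and 0.02 for degradation, beside -0.02, and 1 gene of the 2 lists was called (Spcs3).

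Of 11 tested sensors and eIF2 kinases, 10 lay above 0 with construct 5 (median 0.17) and 1 rose, Ern1, at 2.77 ± 0.233 FPKM with construct 5 against 1.93 ± 0.216 FPKM in the controls (SD, n = 3 each; log2 change 0.37, limma adjusted p = 0.04996). Of 20 other Atf4 and amino acid response genes, 14 lay above 0 with construct 5 (median 0.18) and 1 rose, Eif4ebp1, a repressor of cap-dependent translation, at 41.1 ± 3.81 FPKM against 28.1 ± 2.38 FPKM (SD, n = 3 each; log2 change 0.53, adjusted p = 0.0409). With construct 7 the median of these 20 was -0.14, 16 lay below 0 and none was called. Of all tested genes 57% lay above 0 with construct 7, the median was 0.02 and 0.0556% were called. Of 20 cytosolic aminoacyl-tRNA synthetases, many of which Atf4 switches on, 12 lay above 0 with construct 5 (median 0.04), and 1 rose, Tars, at 18.6 ± 0.912 FPKM against 15.0 ± 0.215 FPKM in the controls (SD, n = 3 each; log2 change 0.29, adjusted p = 0.0490). Each of these 3 lists thus held 1 called gene, close to the 5.27% called of all tested genes, beside an all-gene median of 0.13 and 76.7% above 0. With construct 7 the median was 0.06 for the sensors and 0.01 for the synthetases. Under median-ratio scaling the construct 5 medians were 0.01 for the sensors, 0.00 for the amino acid response genes and -0.13 for the synthetases, beside -0.02 for all genes, with none called. With construct 7, none of the 112 tested genes of the 6 lists was called by limma, and none of the 111 that voom tested was called by voom. At an unadjusted p under 0.05 limma counted 4 of the 112, beside 1022 of all 10794 tested genes. The lowest limma adjusted p was 0.326, for Yars.

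**Figure D5:**
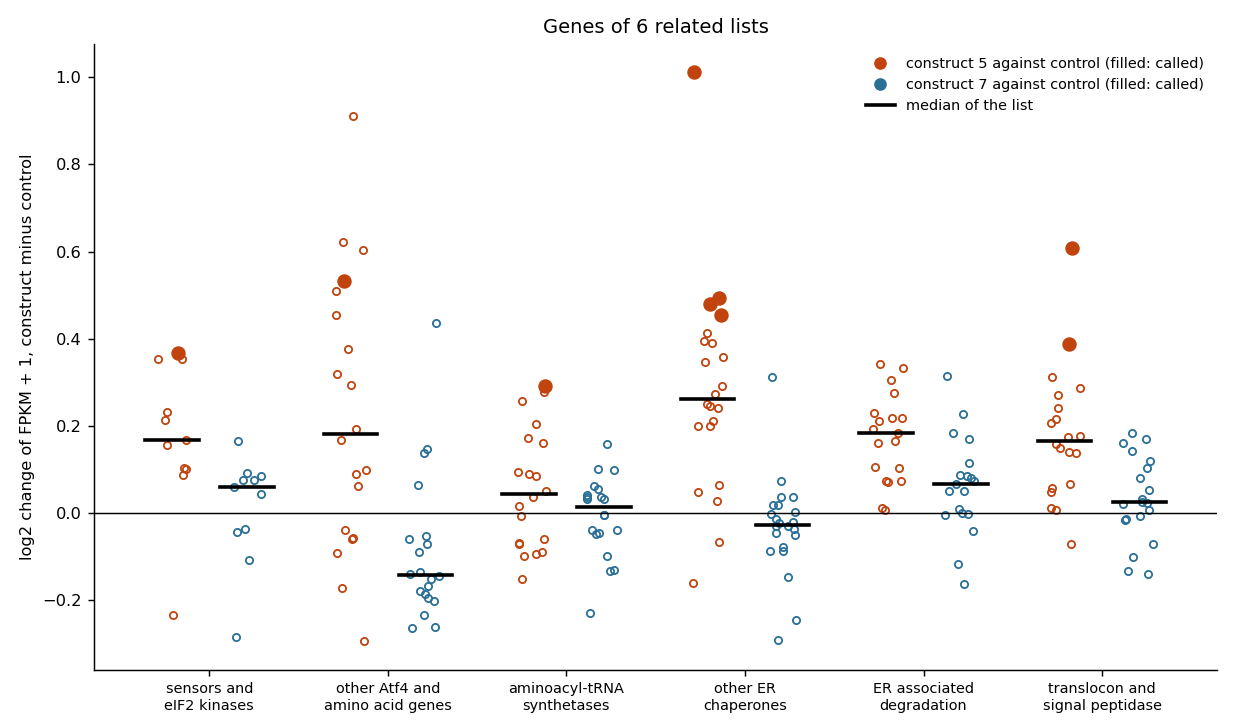
Log2 change of FPKM + 1 (vertical axis) of each tested gene of 6 related lists with construct 5 and with construct 7 against control siRNA; filled points passed the test and black lines are medians. The list of other ER chaperones has the highest construct 5 median (0.26), with 4 genes called, and no gene is called with construct 7.

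The 9 calls in these lists depended on the processing and on single libraries. Without the filter on low values none of the 9 was kept (adjusted p from 0.0523 to 0.105), and with a pseudocount of 0.1 3 were. Voom kept all 9 and median-ratio scaling kept only Spcs3, the other 8 reaching an adjusted p of 0.0807 to 0.298. None of the 9 was kept without construct 5 replicate 1 (adjusted p from 0.111 to 0.167), without construct 7 replicate 3 (0.0612 to 0.0711), or without control replicate 1 (0.119 to 0.141), 2 (0.101 to 0.114) or 3 (0.0949 to 0.117). Without construct 5 replicate 2 only Spcs3 was kept, without construct 5 replicate 3 6 were, without construct 7 replicate 1 4 were and without construct 7 replicate 2 all but Ern1 were.

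By likeness of the log2 level across the 9 libraries, the tested genes closest to Hspa5 were Gm13072 (Pearson's r 0.98), Gpn2 (0.96) and Stk11ip (0.96). Those closest to Trib3 were Scarb1 (0.93), Tspan4 (0.90) and Apol10b (0.88). These are descriptions over 9 libraries that share groups and scaling.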

How the data were processed

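Total RNA of 9 muscle samples had been sequenced. The deposited table gives FPKM per gene, made by the authors on mouse genome mm9 with BWA, STAR and HTSeq, per the submitters' processing notes; versions, the role of each tool and the strand are not given in the sources used here. Values of overlapping or near-identical genes are therefore uncertain. From the deposited FPKM, limma 3.58.1 (R 4.3.3, eBayes with trend) was fitted to log2(FPKM + 1) of all 9 libraries for 10794 genes with a mean of at least 1 FPKM. The 4 contrasts were each construct against control, both against control, and the 2 constructs against each other. A gene was called at a Benjamini-Hochberg adjusted p under 0.05, adjusted within its contrast. The 10 genes, the lists and the tests were chosen with earlier results of these data known. Genes of the related lists were named when called, or as the smallest p of the list. The 3 genes most like Hspa5 and Trib3 were named by Pearson's r among tested genes outside the 10 genes and the related lists. Reads were recovered from FPKM steps with GENCODE M21 exon lengths: all 53 values of the 10 genes under 1000 reads were whole within 0.1 reads. Those of Atf4 and Hspa5, all above 1000 reads, were mostly not whole (up to 0.493 reads off, for Hspa5). The read numbers of these genes are therefore approximate. Intervals on reads cover counting error only. Same-numbered samples were not taken as pairs. In all, 17 alternatives were run. The scripts were tested on simulated data. Figures used Python 3.11.15 and matplotlib 3.10.9.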

Additional observations from a re-analysis of the deposited data

Results flagged for a closer look

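In 3 of the 112 tested genes of the related lists the 2 constructs differed in a direct test of construct 7 against construct 5 over all genes. Among all 10794 tested genes 1.22% were called, 16 higher and 116 lower with construct 7. Fkbp11, a prolyl isomerase of the ER, was at 0.988, 2.42 and 0.857 FPKM with construct 7, against 5.62, 5.43 and 3.47 FPKM with construct 5 (log2 change -1.30, limma adjusted p = 0.0463). Spcs3, the signal peptidase subunit, was at 9.85, 10.02 and 9.19 FPKM with construct 7, against 15.2, 13.8 and 12.4 FPKM with construct 5 (log2 change -0.47, adjusted p = 0.0345). Aldh18a1, which makes a precursor of proline, was at 1.08, 1.76 and 1.21 FPKM with construct 7, against 2.71, 2.61 and 2.15 FPKM with construct 5 (log2 change -0.58, adjusted p = 0.0471). In each gene all 3 construct 7 libraries lay below all 3 construct 5 libraries, as they did in 22.4% of all tested genes. These calls were kept in 5 of 16 alternatives for Fkbp11, 7 of 17 for Spcs3 and 5 of 16 for Aldh18a1, and all were lost under median-ratio scaling. They were also lost when any 1 library other than construct 5 replicate 3 or construct 7 replicate 2 was left out, and over the alternatives the adjusted p reached 0.150 for Fkbp11, 0.130 for Spcs3 and 0.154 for Aldh18a1. Groups of 3 libraries were not examined for single outlying libraries.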

How the results depend on the processing

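Counts of called genes and sizes of change both depended on the processing. Over the alternatives, the construct 5 change ranged from 0.095 to 0.39 for Hspa5 and from 0.62 to 1.35 for Asns. With construct 5, the 569 called genes became 316 with a pseudocount of 0.1, 5 without the filter, 204 with a mean of at least 5 FPKM, 197 under median-ratio scaling, 246 with only the libraries of the contrast and 11 with a replicate block, and ranged from 1 to 578 when one library was left out. Of the 10 genes, the 1 call became 0 without the filter, under median-ratio scaling and with the replicate block, and 0 to 2 when one library was left out. With construct 7, the 6 called genes became 0 without the filter, 3 under median-ratio scaling and 2 with only its own libraries, and 0 to 5 when one was left out. For both constructs together, 1 became 0 without the filter, 2 with a mean of at least 5 FPKM, 4 with the replicate block and 2 with voom, and 0 to 7 when one was left out. Between the constructs, 132 became 10 without the filter, 48 with a mean of at least 5 FPKM, 23 with only the 6 libraries and 217 with the replicate block, and 3 to 376 when one was left out. There the 10 genes gave 1 call with the replicate block and 0 to 2 when one library was left out. Same-numbered libraries did not deviate together (correlations -0.364 to 0.313 over 9 pairs, 2 above 0.1), so the replicate block is given as a value only. With it the construct 5 change of Hsp90b1 had an adjusted p of 0.0519, Sdf2l1 passed between the constructs (0.0375) and 1 of the 9 related genes called with construct 5 was kept. Over 664 values of the 10 genes under the alternatives, 649 stayed on their side of the threshold, 9 lost a call and 6 gained one. Of the 40 results behind these values only 1 had passed, Hsp90b1 with construct 5, so most values had no call to lose. All 9 losses were of Hsp90b1 with construct 5, whose call was kept in 8 of 17 alternatives. The sign changed in 28 values, none of them of Hsp90b1 with construct 5. The Ubr4 decrease lost its call with construct 5 (adjusted p = 0.0523) and construct 7 (0.0976) without the filter. Its construct 5 call was also lost without construct 5 replicate 1 (0.0955) and control replicates 2 (0.0633) and 3 (0.0949), and its construct 7 call without construct 7 replicate 2 (0.0737) and control replicates 2 (0.0603) and 3 (0.0879). The low levels of Asns and Trib3 and the 3 libraries per group limit what could be detected. Without control replicate 1, Trib3 came under the filter, so neither it nor the Atf4-arm median has a value there.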
